A study of Mus musculus with 3 samples.

Results

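Axon guidance ligands and receptors were taken as the 58 mouse protein-coding genes whose symbols are those of the semaphorins (Sema with a number), plexins (Plxna to Plxnd), ephrins (Efna and Efnb), Eph receptors (Epha and Ephb), Slits and Robos, out of 21646 protein-coding genes set against the accessible sites. They comprise 20 semaphorins, 9 plexins, 8 ephrins, 14 Eph receptors, 3 Slits and 4 Robos. The genes were chosen by name and not by any measured value. Accessibility was read by DNase-seq, which maps stretches of chromatin that DNase I can cut, in Müller cells, the radial glia of the retina. The cells were primary cells from B6NCrl mice aged 12 days with males and females pooled, and they make up 1 group of 3 biological replicates. The labels name no allele, treatment, sort or time in culture, and they point to a nuclei and DNase protocol for cultured cells.

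The 6 families form ligand and receptor pairs on the surface of migrating cells and growing neurites. Semaphorins signal through plexins, with neuropilins as co-receptors for most of the secreted class; ephrins are bound to the cell membrane and signal through Eph receptor tyrosine kinases, with reverse signals into the ephrin-bearing cell; Slits are secreted and signal through Robos. In the retina these pairs are known for steering ganglion cell axons to the optic nerve and their targets, for confining neurites to layers, and for patterning vessels, and glia can carry both ligands and receptors.

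An accessible site is a region where peaks of all 3 replicates overlapped by at least 1 bp. A promoter is called open where such a site lies within 1 kb of any annotated protein-coding start of the gene, and a site farther from every start is distal and was counted for whichever gene had the closest start, up to 100 kb away. That rule of distance does not show which gene a site acts on, and an open promoter is not a measure of transcription. Each peak has a deposited score, a whole number from 1 to 150 whose meaning is not stated, and scores are given below in the order of replicates 1, 2 and 3. The top promoter score of a gene is the highest within 1 kb of any of its starts, taken in each replicate separately. At a gene with several starts, its values and their SD can therefore come from different promoters. The replicates had 300269, 281185 and 184544 peaks. Read depth is unknown, so the smaller list of replicate 3 cannot be read against it. All replicates carry the same donor label with separate biosample labels, so an SD here reflects how far these 3 samples lie apart, for technical or other reasons.

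The cell type label was set beside marker genes. Their lists were chosen with earlier results of these data known, so they are not an independent check of the label. All 12 Müller glia markers had an open promoter, with summed top scores of 1457, 1375 and 1293, and none of the 10 rod markers had a promoter peak in any replicate. Among 15 microglia and macrophage markers, 15, 15 and 3 had a promoter peak, with summed top scores of 1240, 1206 and 172. Open promoters were also found for 6 of 10 endothelial markers, 8 of 10 ganglion cell markers, 8 of 10 amacrine and bipolar markers, 6 of 6 astrocyte markers and 9 of 10 pericyte and fibroblast markers. Of all protein-coding genes 67.1% had an open promoter, and 72.6%, 71.8% and 69.7% had a promoter peak in replicates 1, 2 and 3. An open promoter of a marker thus does not by itself show that the cell type was present. In such bulk material, fewer cells of a type and less accessibility per cell cannot be told apart.

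The strongest distal site of each family is shown first, since these are the sites whose rank was high in every replicate; the sequences are the plus strand of mm10, read from the RefSeq copy of assembly GRCm38.p6. Capitals mark matches, on either strand, to the motif words listed after the sequences.
Sema3e, chr5:14073276-14073425: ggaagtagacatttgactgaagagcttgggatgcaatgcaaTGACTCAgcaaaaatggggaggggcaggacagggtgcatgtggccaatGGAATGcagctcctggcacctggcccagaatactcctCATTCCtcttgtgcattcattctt
Plxnb2, chr15:89169516-89169685: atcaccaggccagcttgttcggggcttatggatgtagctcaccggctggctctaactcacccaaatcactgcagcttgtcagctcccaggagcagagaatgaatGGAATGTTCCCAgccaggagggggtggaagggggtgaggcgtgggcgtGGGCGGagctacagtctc
Efna5, chr17:62882976-62883205: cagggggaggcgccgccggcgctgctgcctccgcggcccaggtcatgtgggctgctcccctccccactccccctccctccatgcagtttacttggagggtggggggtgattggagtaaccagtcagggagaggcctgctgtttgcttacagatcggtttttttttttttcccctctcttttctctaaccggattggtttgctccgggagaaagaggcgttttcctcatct
Ephb2, chr4:136781956-136782145: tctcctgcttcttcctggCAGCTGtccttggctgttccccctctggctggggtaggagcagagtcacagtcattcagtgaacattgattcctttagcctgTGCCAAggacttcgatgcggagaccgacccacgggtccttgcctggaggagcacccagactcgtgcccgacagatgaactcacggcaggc
Slit2, chr5:47921836-47922005: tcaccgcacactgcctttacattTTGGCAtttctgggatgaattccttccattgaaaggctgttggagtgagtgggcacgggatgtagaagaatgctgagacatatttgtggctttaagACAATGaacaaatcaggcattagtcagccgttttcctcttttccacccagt
Robo3, chr9:37456636-37456825: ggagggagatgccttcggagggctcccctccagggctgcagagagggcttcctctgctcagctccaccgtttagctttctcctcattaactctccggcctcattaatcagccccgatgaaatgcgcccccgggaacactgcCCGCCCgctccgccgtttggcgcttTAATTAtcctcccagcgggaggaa

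The Sema3e site lies in an intron 48000 bp from the start and scored 134, 129 and 129; it holds 1 AP-1 word and 2 TEAD words. The Plxnb2 site lies in the gene's intron, 1003 bp from an inner start that was not open and 11188 bp downstream of the open promoter at 89180788, and scored 131, 132 and 133, with a TEAD word followed directly by an RBPJ word, and a GC box. The Efna5 site is intergenic, 1659 bp upstream, scored 134, 130 and 136, and holds none of the words. At these 3 sites there was little between the replicates. The Ephb2 site is intronic, 53698 bp from the start, and scored 143, 131 and 125. The Slit2 site is intergenic, 61133 bp upstream, and scored 140, 134 and 105, so replicate 3 was the lowest. The Robo3 site is intergenic, 23390 bp upstream, scored 125, 107 and 112, and holds a homeobox word and a GC box.

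The strongest promoter sites among the 58 genes belonged to Eph receptors, and the leading site of each of the first 2 genes is shown on the plus strand in the same way.
Ephb3, chr16:21204516-21204685: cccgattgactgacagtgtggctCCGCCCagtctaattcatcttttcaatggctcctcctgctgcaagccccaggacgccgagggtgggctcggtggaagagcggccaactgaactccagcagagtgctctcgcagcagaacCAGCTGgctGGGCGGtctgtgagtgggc
Epha7, chr4:28812956-28813125: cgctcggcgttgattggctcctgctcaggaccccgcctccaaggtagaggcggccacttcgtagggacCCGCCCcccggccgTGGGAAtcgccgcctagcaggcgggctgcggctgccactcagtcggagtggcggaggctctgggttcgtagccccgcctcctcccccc

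The Ephb3 site, 70 bp upstream of the start, scored 147, 147 and 141 and holds 2 GC boxes and 1 E-box. The Epha7 site, 6 bp upstream of the start, scored 142, 140 and 136 and holds 1 GC box and 1 RBPJ word.

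The words searched on both strands, and counted for the shares in the central 150 bp of a site, were AP-1 TGANTCA, the NFI single site TTGGCA, the palindromic NFI full site, TEAD GGAATG, SOX ACAATG, homeobox TAATTA, E-box CAGCTG, RUNX TGTGGT, PU.1 GAGGAAGT, ETS CCGGAA, OTX GGATTA, CREB TGACGTCA, STAT TTCCNGGAA, GC box GGGCGG, RBPJ TGGGAA, and the CTCF consensus. Matches of different words may overlap, and a match is not a bound factor. For most words the share among the 539 distal sites of guidance genes was close to that among all 86108 distal sites. AP-1 was found in 19.3% against 20.6%, TEAD in 18.6% against 19.0%, the NFI single site in 18.4% against 17.1%, RUNX in 16.1% against 17.1%, RBPJ in 16.3% against 17.1%, the E-box in 13.9% against 13.9% and SOX in 10.8% against 11.3%. The homeobox word was in 9.46% of the guidance sites and in 5.83% of all distal sites. CTCF was in 2.60% and 4.53%, OTX in 5.57% and 3.86%, the GC box in 7.79% and 6.5%, and ETS in 2.97% and 2.85%. PU.1, a word of the factor that marks macrophages, was in 0.928% and 1.3%. CREB was in 0.186% and 0.394%, STAT in 0.371% and 0.837%, and the NFI full site in 0 of the guidance sites and in 0.0929% of all. Mean GC content was 51.2% in the guidance sites and 49.95% in all.

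Shares by family are given for 2 of these words, chosen after the values were seen. The homeobox word was in 15.6% of 45 Slit sites, 14.3% of 133 Eph receptor sites and 12.2% of 41 Robo sites, and in 6.60% of 197 semaphorin, 6.38% of 47 ephrin and 5.26% of 76 plexin sites. The TEAD word ran the other way at the ends of the range, with 32.9% of plexin sites and 4.44% of Slit sites; ephrins had 10.6%, Eph receptors 13.5%, Robos 19.5% and semaphorins 21.3%. These shares describe the sites; sites of 1 gene share a neighbourhood, and no test was made.

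Promoters of guidance genes were open in 53 of 58 cases (91.4%), where 67.1% of all protein-coding genes had an open promoter. In single replicates a promoter peak was present at 53, 54 and 55 guidance genes, against 72.6%, 71.8% and 69.7% of all genes in replicates 1, 2 and 3. The share of guidance genes with a promoter peak was 93.1% ± 1.72 (SD, n = 3) and that of all genes 71.4% ± 1.53 (SD, n = 3). No promoter peak in any replicate was found at 2 guidance genes (3.45%), Epha1 and Robo4, and at 25.5% of all genes. On the score, unlike the calls, guidance genes lay lower. The median top score of open guidance promoters was 106, 92 and 105, below the 126, 118 and 115 of all open genes in each replicate.

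**Figure D1:**
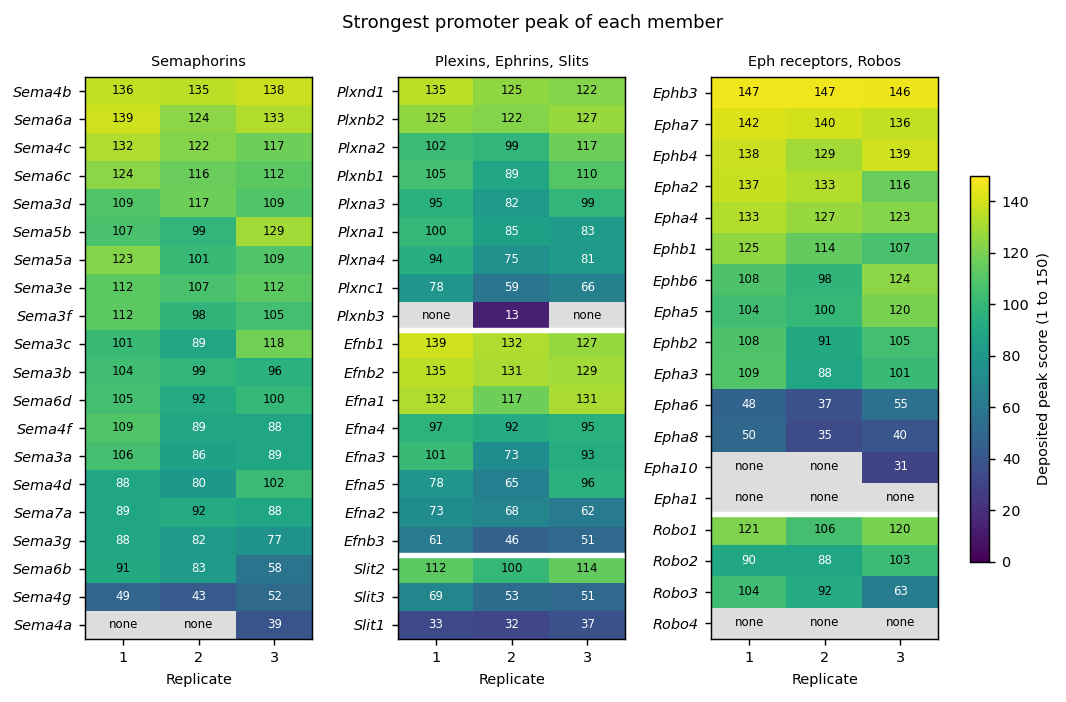
Highest deposited peak score (1 to 150) within 1 kb of a start for each of the 58 genes (rows) in replicates 1, 2 and 3 (columns), by family and ordered by mean; grey cells have no peak. Ephb3 has the highest scores at 147, 147 and 146, Slit1 the lowest of the open promoters at 33, 32 and 37, and 5 genes have at least 1 grey cell.

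Semaphorin ligands were open at 19 of 20 promoters, with a median top score of 107, 98 and 105. Sema4b, a transmembrane class 4 semaphorin, had the highest mean, from scores of 136, 135 and 138 (136 ± 1.53, SD, n = 3). Sema4g, also class 4, had the lowest of the open ones, with 49, 43 and 52 (48 ± 4.58, SD, n = 3). Its first start scored 49, 33 and 52 and its inner start 41, 43 and 32, so that SD is not that of 1 promoter. The scores of Sema4b and Sema4g were far apart in every replicate. The secreted class 3 genes, which repel axons and guide vessels, were open at 7 of 7. Sema3e, which binds plexin D1 without a neuropilin, scored 112, 107 and 112. Sema3a, the classic repellent that acts through neuropilin 1, scored 106, 86 and 89, and Sema3g was the lowest of the class at 88, 82 and 77. Sema5a and Sema5b, which confine neurites of inner retinal neurons in mouse, scored 123, 101 and 109 and 107, 99 and 129. Sema6a, the transmembrane ligand of plexins A2 and A4 known for retinal lamination in mouse, scored 139, 124 and 133. Sema7a, the class anchored by a lipid and a ligand of plexin C1, scored 89, 92 and 88.

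Sema4a, which mouse photoreceptors need for survival, was the 1 semaphorin without an open promoter. It had no promoter peak in replicates 1 and 2 and 1 peak of 39 in replicate 3, near 1 of its 9 annotated starts, at 88461182 of chromosome 3. Its distal peaks numbered 9, 10 and 2, so the replicate with the promoter peak had the fewest distal ones. Of the 10 distal regions nearest to Sema4a, 7 had peaks in replicates 1 and 2 alone.

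Plexin receptors were open at 8 of 9 promoters, with a median top score of 101, 87 and 104.5. Plxnd1, the receptor for Sema3e, had the highest mean, with scores of 135, 125 and 122 (127 ± 6.81, SD, n = 3), and Plxnb2, the receptor for several class 4 semaphorins, followed with 125, 122 and 127. These 2 genes overlapped in their scores. Plxnc1, the receptor for Sema7a, was the lowest of the open ones at 78, 59 and 66 (67.7 ± 9.61, SD, n = 3), below both in every replicate. The 4 class A plexins, which pair with neuropilins for the secreted semaphorins, were all open, with Plxna2 at 102, 99 and 117, Plxna1 at 100, 85 and 83, Plxna3 at 95, 82 and 99, and Plxna4 at 94, 75 and 81. Plxnb1, the receptor for Sema4d, scored 105, 89 and 110. Plxnb3, at chrX:73757090-73772514, had 1 promoter peak of 13 in replicate 2 and none in replicates 1 and 3.

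Ephrin ligands were open at 8 of 8 promoters, with a median top score of 99, 82.5 and 95.5. The transmembrane ephrins held both ends of the range. Efnb1 had the highest mean, with scores of 139, 132 and 127 (133 ± 6.03, SD, n = 3), and Efnb2, known for arterial and neural boundaries, had 135, 131 and 129. For Efnb2 the value of replicate 3 came from another start than those of replicates 1 and 2. Efnb3, known as the midline barrier of the spinal cord in mouse, had the lowest, with 61, 46 and 51 (52.7 ± 7.64, SD, n = 3). Among the lipid-anchored ephrins, Efna1 scored 132, 117 and 131 and Efna4 97, 92 and 95. Efna2 and Efna5, which form the gradients that map retinal axons in the midbrain, scored 73, 68 and 62 and 78, 65 and 96, and Efna3 scored 101, 73 and 93. Efna2 lay below Efna5 in replicates 1 and 3 and above it in replicate 2.

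Eph receptors were open at 12 of 14 promoters and had the highest median top score of the 6 families, 117, 107 and 118. Ephb3, a receptor of ventral retinal axons, had the highest top scores of all 58 genes in each replicate, 147, 147 and 146 (147 ± 0.577, SD, n = 3). The value of replicate 3 came from an inner start, and the first start scored 147, 147 and 141, so the SD is not that of 1 promoter. Epha7, a receptor known for repulsion in the visual map, followed with 142, 140 and 136, and Ephb4, the venous receptor for ephrin-B2, had 138, 129 and 139. Epha2, an epithelial and lens receptor, scored 137, 133 and 116, and Epha4, which binds both ephrin classes, 133, 127 and 123. Ephb1, which directs the uncrossed ganglion cell axons at the mouse optic chiasm, scored 125, 114 and 107, and Ephb2 scored 108, 91 and 105. Epha3, Epha5 and Ephb6, the last a receptor without kinase activity, lay between 88 and 124. Epha8 and Epha6 stood apart at the lower end, with 50, 35 and 40 (41.7 ± 7.64, SD, n = 3) and 48, 37 and 55 (46.7 ± 9.07, SD, n = 3).

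The other 2 Eph receptors had no open promoter. Epha1, an epithelial receptor, at chr6:42358487-42373268, had no promoter peak in any replicate. Epha10, which lacks kinase activity, at chr4:124880899-124917800, had none in replicates 1 and 2 and 1 of 31 in replicate 3. Epha1 had 6, 5 and 0 distal peaks and no distal site in all 3, and Epha10 had 4, 2 and 2 with 1 site.

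Slit ligands were open at 3 of 3 promoters but had the lowest median top score of the 6 families, 69, 53 and 51. Slit2, the Slit most studied for repulsion of retinal axons, had scores of 112, 100 and 114 (109 ± 7.57, SD, n = 3). Slit3 had 69, 53 and 51, and Slit1, which also repels retinal axons, had 33, 32 and 37 (34.0 ± 2.65, SD, n = 3). The 3 Slits did not overlap in their scores. Slit1 nevertheless had a site 2471 bp upstream of its start that scored 119, 111 and 126, above its promoter in every replicate.

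Robo receptors were open at 3 of 4 promoters, with a median top score of 104, 92 and 103. Robo1, a receptor for Slits, had scores of 121, 106 and 120 (116 ± 8.39, SD, n = 3), and Robo2, the Slit receptor of ganglion cells, had 90, 88 and 103. Robo3, which lets commissural axons cross the midline, had 104, 92 and 63 (86.3 ± 21.1, SD, n = 3), with replicate 3 the lowest. Robo4, an endothelial receptor at chr9:37401897-37415115, had no promoter peak in any replicate. Open promoters were found at 6 of 10 endothelial markers and at 67.1% of all genes. Robo4 had 6, 7 and 3 distal peaks and 2 distal sites in all 3 replicates.

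Many guidance genes have annotated starts in several places, and not all of these were open. Starts less than 2 kb apart were joined into promoter regions, which gave 91 regions for the 58 genes. Of these, 61 (67.0%) were open, against 53.3% of the 30715 promoter regions of all genes. A single region was annotated for 34 genes. Of the 24 with more, 8 had at least 2 open regions and 15 had both open regions and regions that were not open. Of the 30 regions that were not open, 15 hold only starts of transcripts that the annotation tags as incomplete at the 5′ end. At Epha4, Ephb2 and Robo2, among others, this holds for every region that was not open. Such regions need not be promoters. Of the 75 regions with a complete start, 60 were open. The tags were read for guidance genes alone, so these counts have no share over all genes beside them.

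The CpG content of a promoter went with its call. The ratio of observed to expected CpG was taken in 500 bp either side of each start. A region got the highest ratio of its starts, so regions with several starts had more chances to reach 0.6. The ratio was at or above 0.6 in 48 of the 91 regions. Of those, 47 were open (97.9%), where 95.5% of such regions of all genes were. Below 0.6, 14 of 43 were open (32.6%), against 27.9% over all genes. The median ratio was 0.715 in open regions of guidance genes and 0.234 in those that were not open. The 1 CpG-rich region that was not open is the inner Epha10 region, with a ratio of 0.623 and an incomplete start. The median ratio was 0.623 over the 91 regions of guidance genes and 0.398 over the regions of all genes.

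**Figure D2:**
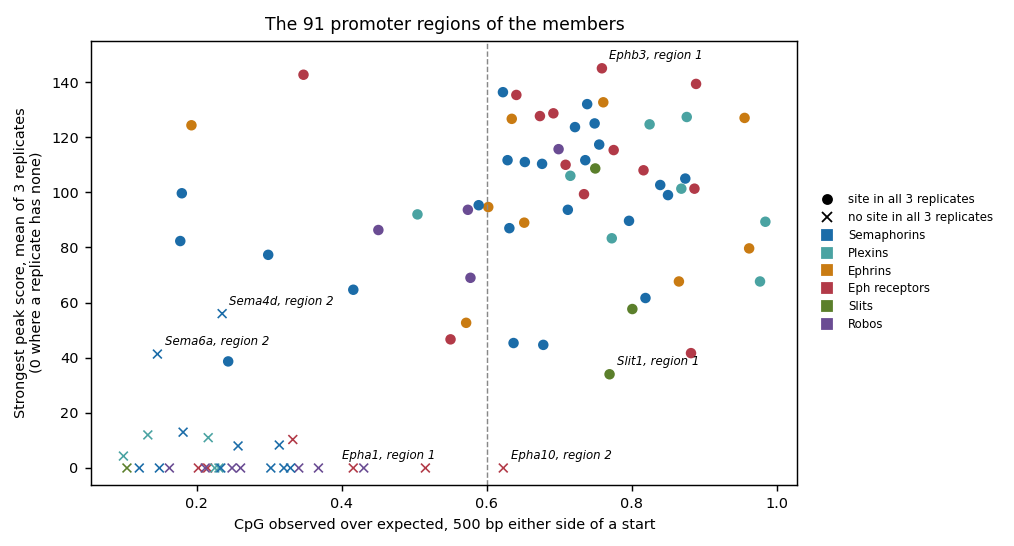
CpG observed over expected (x axis) against the strongest peak score (y axis) for the 91 promoter regions, coloured by family. CpG was read in 500 bp either side of a start and is the highest over a region's starts. The score is the mean of 3 replicates, with 0 where a replicate has none. Circles are open, crosses are not, and the dashed line is at 0.6. To the right of the line 47 of 48 regions are open and to the left 14 of 43.

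Robo1 is an example of a gene with 1 open start among several. The 120 bp before each of its 3 annotated starts are printed on the plus strand, with CpG in capitals. They were chosen after the values were seen.
Robo1 first start, chr16:72308186-72308305: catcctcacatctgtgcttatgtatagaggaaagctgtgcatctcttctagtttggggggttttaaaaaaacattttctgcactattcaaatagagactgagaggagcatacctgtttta
Robo1 inner start, chr16:72563580-72563699: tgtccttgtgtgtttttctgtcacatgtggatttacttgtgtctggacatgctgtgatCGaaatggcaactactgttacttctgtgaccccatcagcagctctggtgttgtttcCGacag
Robo1 last start, chr16:72663029-72663148: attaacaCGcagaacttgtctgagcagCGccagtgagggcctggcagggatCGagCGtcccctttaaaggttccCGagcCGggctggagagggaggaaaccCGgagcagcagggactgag

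The first 2 stretches hold 0 and 2 CpG, and no replicate had a peak within 1 kb of either start, at 72308306 and 72563700. The inner one belongs to an incomplete transcript. The last stretch holds 7 CpG, and the start after it, at 72663149, carried the scores of 121, 106 and 120. In Robo2 the order was the opposite. Of its 5 regions only the one farthest upstream, with starts between 74410912 and 74411534 of chromosome 16, was open, at 90, 88 and 103. The other 4 had no peak and hold only starts of incomplete transcripts. Other genes had more than 1 open region. Ephb3 scored 147, 147 and 141 at its first region and 141, 141 and 146 at its inner one, and Efnb2 scored 134, 118 and 129 at the start at 8661242 and 135, 131 and 107 at the start at 8639363, which belongs to an incomplete transcript and has a CpG ratio of 0.193. Sema4b had 136, 135 and 138 and 117, 125 and 133, and Robo3 had 104, 92 and 63 and 84, 73 and 50. Sema6d had 105, 92 and 100 at its middle region, 45, 27 and 64 at the first and no peak at the last.

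No guidance gene had a promoter peak in replicates 1 and 2 and none in replicate 3 (0 of 58), a pattern found at 3.02% of all genes and at 12 of the 15 microglia and macrophage markers. At the finer level of promoter regions, 2 of 91 (2.20%) had it, against 4.02% of all regions, and 4 of 91 (4.40%) had a peak in replicate 3 alone, against 0.863%. The 4 were a Sema4a region at 39, an inner Plxnb1 region at 33, the first Epha10 region at 31 and a Sema4d region at 24, all of low score. One of the 2 is an inner start of Sema4d, a transmembrane semaphorin also known from immune cells, at 51734763 of chromosome 13. Its peak scored 88 in replicate 1 and 80 in replicate 2, and replicate 3 had none within 1 kb. The upstream promoter of Sema4d, at 51793673 to 51793747, scored 85, 74 and 102 in the same replicates.

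The 200 bp before that inner Sema4d start are printed on the minus strand, chosen after the values were seen. Capitals mark the RUNX word, found in the central 150 bp of 17.1% of all distal sites. For distal regions of all genes in replicates 1 and 2 alone the share was 19.2%. No share was counted for promoters.
Sema4d, chr13:51734764-51734963: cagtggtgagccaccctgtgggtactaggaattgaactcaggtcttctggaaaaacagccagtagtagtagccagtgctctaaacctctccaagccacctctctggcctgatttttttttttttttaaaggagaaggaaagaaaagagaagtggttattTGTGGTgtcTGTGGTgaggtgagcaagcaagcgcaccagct

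Both RUNX words lie in the stretch under the peak. Whether the inner Sema4d start moves with the macrophage markers because of the cells in the replicates was not tested.

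Guidance genes had many distal sites. Together they had 539, with a median of 7 per gene against 2 over all genes and a mean of 9.29 against 3.98. At least 1 distal site was found at 53 of 58 (91.4%), where 69.8% of all genes had one. Above the all-gene 90th percentile of 11 sites stood 17 of the 58, where 8.95% of all genes did. In single replicates the median number of distal peaks was 16, 16 and 9.5 per guidance gene and 4, 4 and 2 per gene over all. Guidance genes also had more genome nearest to them, with a median of 95986 bp against 43181 bp. Per 100 kb of that length the median was 7.48 sites against 4.36, so the difference between the medians was smaller on that scale. The 5 genes without a distal site were Sema4g, Sema6b, Plxna3, Efnb3 and Epha1.

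**Figure D3:**
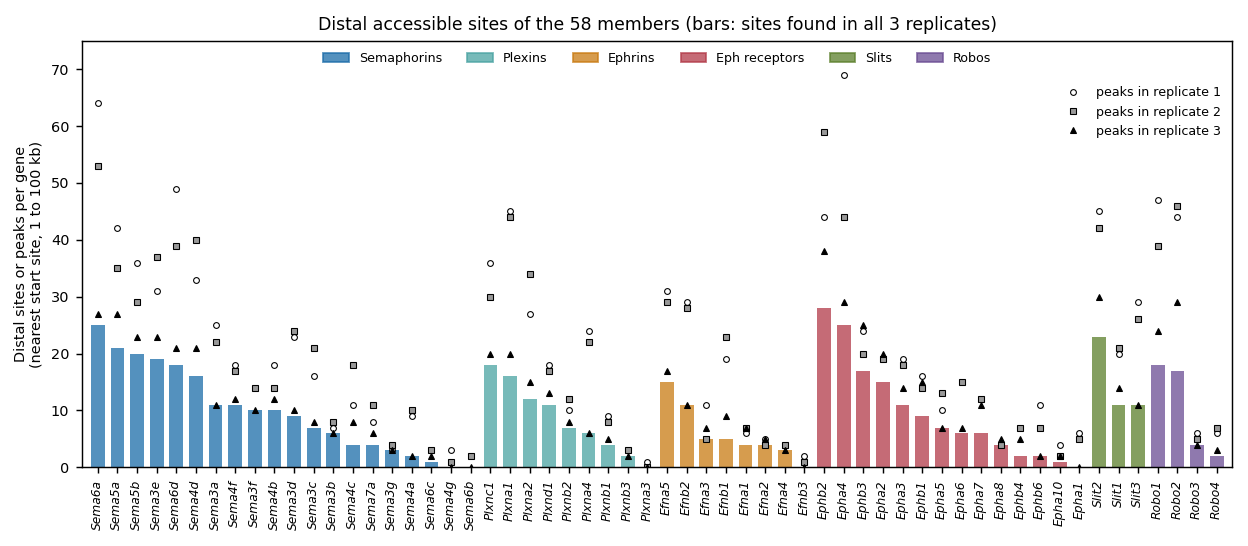
Number of distal sites found in all 3 replicates (bars, coloured by family) and of distal peaks in each replicate (symbols) for the 58 genes, within 100 kb of the nearest start. Ephb2 has the most sites at 28, Epha4 has the most peaks in a single replicate at 69, and replicate 3 (triangles) is the lowest at most genes.

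The 12 genes with the most distal sites came from 5 of the 6 families, with no ephrin among them. Ephb2 led with 28 sites from 44, 59 and 38 peaks, which was more than at 99.0% of all genes. Epha4 had 25 sites from 69, 44 and 29 peaks, and Sema6a 25 sites from 64, 53 and 27. For both, replicate 1 had more than 2 peaks for each peak of replicate 3. Slit2 had 23 sites from 45, 42 and 30 peaks. Sema5a had 21 from 42, 35 and 27, and Sema5b 20 from 36, 29 and 23. Replicate 3 was the lowest at each of these 6 genes.

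Sema3e had 19 sites from 31, 37 and 23 peaks, so its receptor Plxnd1, with 11 sites from 18, 17 and 13, had fewer. Plxnc1 had 18 sites from 36, 30 and 20 peaks although its promoter score was the lowest of the open plexins. Robo1 had 18 sites from 47, 39 and 24 peaks and Robo2 17 from 44, 46 and 29. Sites were also counted from annotated starts that were not open, which gives more genome to genes with starts far apart. The genome nearest to Robo1 was 493448 bp, to Robo2 444145 bp, to Slit2 362914 bp and to Epha4 333475 bp. Of the 18 Robo1 sites, 13 lay upstream of its open start. Sema6d, a ligand of plexin A1, had 18 sites from 49, 39 and 21 peaks. Ephb3 was the exception in the order of the replicates, with 17 sites from 24, 20 and 25 peaks (23 ± 2.65, SD, n = 3). Epha2 was alike in all replicates too, with 15 sites from 19, 19 and 20 peaks (19.3 ± 0.577, SD, n = 3).

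By family, the median number of distal sites was 11 for Slits, 10.5 for Robos, 9.5 for semaphorins, 7 for plexins, 6.5 for Eph receptors and 4.5 for ephrins. Per 100 kb of the genome nearest to a family's genes, summed over those genes, the order changed. The values were 8.69 sites for semaphorins, 8.18 for ephrins, 7.86 for plexins, 6.94 for Eph receptors, 6.73 for Slits and 4.07 for Robos. On the same measure guidance genes together had 7.28 and all protein-coding genes 5.71, so Robos lay below all genes. Slits and Robos, first by the median, were last on that scale. Among single genes, compact ones were in front per 100 kb. Sema3b, a secreted semaphorin that signals through neuropilin 2, had 42.7 sites per 100 kb, Sema3f 29.3, Plxnb2 28.6, Efna4 26.1 and Epha2 25.5. Robo1 and Sema6d, 2 of the longest genes, had 3.65 and 4.12 per 100 kb.

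Most distal sites lay inside genes. Of the 539, 61.6% were intronic, 34.5% intergenic and 3.90% exonic, against 51.4%, 43.3% and 5.35% of all distal sites. In the guidance gene itself lay 61.8%, and of the 532 near genes with an open promoter 32.3% were upstream of the strongest one. Neither of these shares was counted over all genes. The share within 10 kb of a start was 28.6%, close to the 28.8% of all distal sites. Ephb2 had 27 of its 28 sites within its own gene, among them a row of strong ones. Beside the printed site, the site at chr4:136776496-136776725 scored 133, 131 and 134 and that at chr4:136773216-136773405 scored 133, 134 and 130. Sema5b had 19 of 20 sites downstream of its start and none within 10 kb. Plxnc1 had its strongest sites upstream in intergenic sequence, with 143, 132 and 110 at chr10:94990856-94991045, well above its own promoter.

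**Figure D4:**
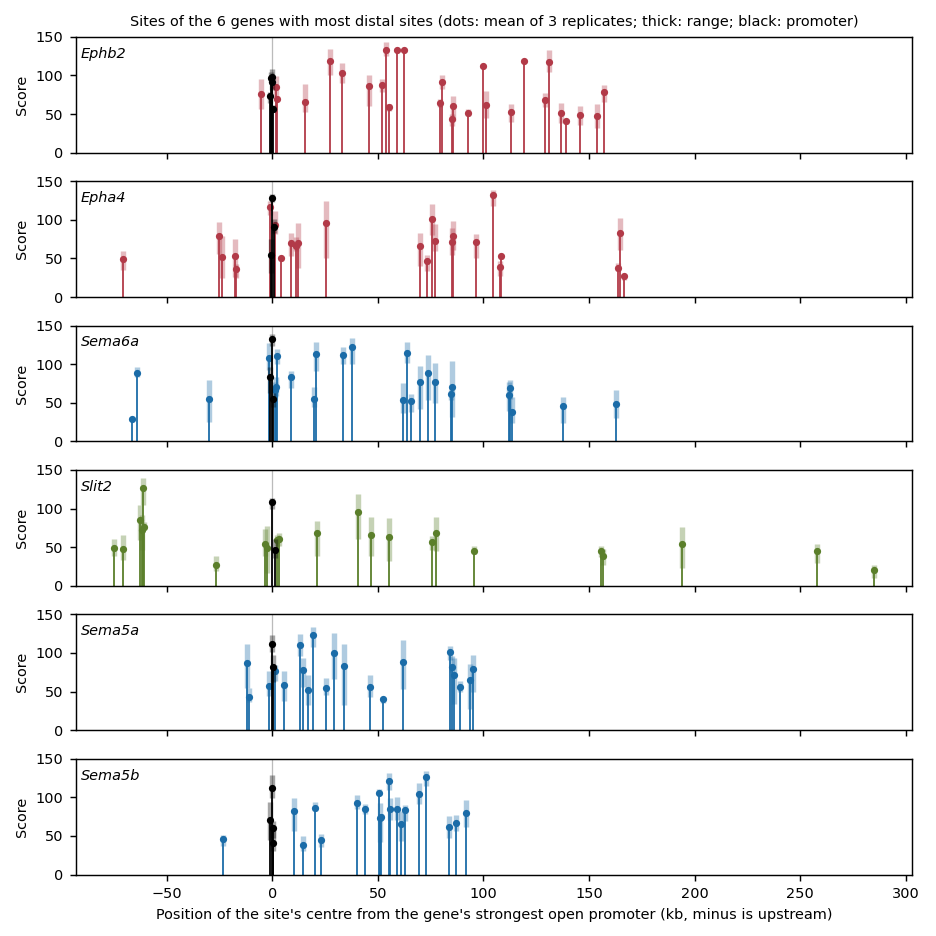
Accessible sites of the 6 genes with the most distal sites by distance from the gene's strongest open promoter (kb, minus is upstream); dots are the mean deposited score of 3 replicates, thick lines its range, black marks sites within 1 kb of a start, and sites past 100 kb lie nearer to another annotated start of the gene. Ephb2 has 27 of 28 and Sema5b 19 of 20 distal sites downstream of that promoter, and Slit2 has 9 of 23 upstream.

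Several guidance genes lie close together in the genome. Efna1, Efna3 and Efna4 lie within chr3:89271733-89338028 and were all open, with Efna1 above the others in every replicate. Ephb2, at chr4:136647539-136835988, has Epha8 close by, at chr4:136929419-136956816, and they had 28 and 4 distal sites and promoter means of 101 and 41.7. Robo3 and Robo4 lie tail to tail on chromosome 9, the first with an open promoter and the second without. The genes of secreted semaphorins on chromosome 5, Sema3a, Sema3c, Sema3d and Sema3e, were all open, with 11, 7, 9 and 19 distal sites.

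Regions were not equally present in the 3 replicates. Of 1361 distal regions near guidance genes, 39.6% had peaks in all 3 replicates, 28.1% in replicates 1 and 2 alone and 5.22% in replicate 3 alone, close to the 39.8%, 27.2% and 5.34% of all 216392 distal regions. Peaks of different replicates can sit side by side without overlap, so the distance to the missing replicate was added as a measure after the data were seen. Regions of replicates 1 and 2 with no replicate 3 peak within 500 bp made up 23% near guidance genes and 23% over all, and regions of replicate 3 with no peak of the others within 500 bp made up 1.40% and 2.21%. Eph receptors had the lowest share of regions in replicates 1 and 2 alone, 20.2%, or 14.1% with none within 500 bp. On the same 2 measures plexins had 33.5% and 27.1%, Robos 31.5% and 29.8%, Slits 31.4% and 26.7%, semaphorins 29.6% and 24.6%, and ephrins 27.6% and 23.6%.

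**Figure D5:**
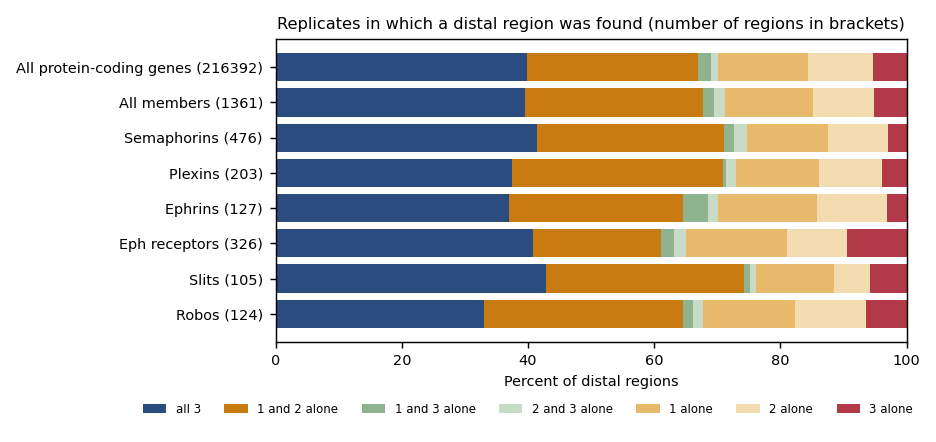
Percent of distal regions by the replicates in which they had a peak, for all genes, all guidance genes and each family, with the number of regions in brackets. Regions in all 3 replicates make up 39.8% over all genes and 39.6% near guidance genes, and Eph receptors have the smallest share in replicates 1 and 2 alone, 20.2%.

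Single genes differed widely in this. Ephb3 had 1 of 30 regions and Epha2 1 of 25 in replicates 1 and 2 alone, and Efnb2 had 15 of 31, of which 10 had no replicate 3 peak within 500 bp. Sema6a had 23 of 69, of which 18 had none. The strongest of those, in an intron of Sema6a at chr18:47318636-47318805, scored 111 and 102 in replicates 1 and 2, and the nearest replicate 3 peak was 10150 bp away. The next, at chr18:47322976-47323125, scored 112 and 95. An inner Sema6a promoter region, with starts at 47333326 to 47333348 of the same chromosome, scored 74 and 50 with no peak in replicate 3, while its upstream promoter was open in all 3. Plxna1 had a region of this kind at chr6:89280696-89280845 with 93 and 98, and Sema4d one at chr13:51736516-51736685 with 84 and 92.

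Other strong regions of this kind had a close neighbour in replicate 3. At chr1:77496556-77496705, nearest to Epha4, the scores were 125 and 113 in replicates 1 and 2, and a replicate 3 peak of 88 began 10 bp beyond it. The strongest region of replicate 3 alone, at chr4:28815296-28815445 and 2046 bp from the Epha7 start, scored 97 and lay 30 bp from a peak of another replicate. Of the regions in replicates 1 and 2 alone, 3.14% scored 80 or more in both near guidance genes and 3.05% over all, against 20.8% and 15.1% of the regions in all 3. The PU.1 word was in 2.88% of the regions in replicates 1 and 2 alone near guidance genes and in 3.74% of such regions over all. The part of the macrophage markers, of peak number and of depth in these replicate differences was not tested.

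The partners of these families were mostly open as well. In a list of 66 other pathway genes found in the annotation, 61 promoters (92.4%) were open, beside the 67.1% of all genes, and the median was 10.5 distal sites. The co-receptors Nrp1 and Nrp2 were both open, with 112, 103 and 120 and 98, 94 and 94, and had 17 and 22 distal sites. Semaphorin and plexin effectors were open at 15 of 15, Eph and ephrin effectors at 13 of 14, shared cytoskeletal effectors at 11 of 11, and repulsive guidance molecules with draxin at 3 of 3. Slit and Robo partners were open at 7 of 8, with no peak at Flrt1. Netrins were open at 5 of 6 and netrin receptors at 5 of 7. Ntn5 scored 52 and 27 at its promoter but lacked a peak in replicate 3, and Dcc, the attractive netrin receptor, had 71, 58 and 55 at positions that did not overlap in all 3 replicates.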

How the data were processed

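DNase-seq of 3 replicates of mouse Müller cells was analysed from the peak and hotspot lists that the authors deposited, on build mm10. Each peak carries a deposited score, a whole number from 1 to 150 whose meaning is not stated; each hotspot carries a −log10 q from 1.30 to a cap of 100, per the deposited lists. Replicates were not pooled. For the aligner and the peak caller, names and versions were not given in the sources used here. Repeated peak positions were removed, 21, 20 and 23 per replicate. Peaks overlapping by at least 1 bp were merged, and regions with peaks of all 3 replicates were kept as sites. Start sites came from GENCODE M21, and sequences from RefSeq's GRCm38.p6; 67 RefSeq promoters of 51 of the genes were identical to that genome. With 1 group and no control, no test between conditions was possible, and no p-value is given. The members were set by the rule of gene symbols, and the lists were chosen with earlier results of these data known. The values of every replicate are given for each member without an open promoter or with a call that differs between replicates, for the highest and lowest open member of each family, and for the 12 with the most distal sites; the others were added by role. Sequences are those of the strongest distal site of each family and 2 promoter sites, plus those marked as added. The merging and counting steps were tested on simulated data. Python 3.11.15, pandas 2.3.3, numpy 2.4.6, pysam 0.24.0 and matplotlib 3.10.9 were used. Alternatives were leaving out each replicate, other overlaps, windows, distance limits and start sites, stronger or equal numbers of peaks, hotspots in place of peaks, and 300 bp motif windows.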

Additional observations from a re-analysis of the deposited data

How the results depend on the processing

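Over the 11 alternatives run for promoters, 49 to 55 guidance genes were open, beside 61% to 71% of all genes. Without replicate 1, 2 or 3 it was 53 each time, beside 67.4%, 68% and 70.6% of all genes. The strongest 50% of peaks lost Epha6, Epha8, Sema4g and Slit1, equal peak numbers lost Sema4g and Slit1, a 500 bp window lost Robo3, the 5′ end of the gene record alone lost Robo1, and a 2500 bp window added Epha10 and Plxnb3. With that wider window 1 guidance gene, Robo4, had promoter peaks in replicates 1 and 2 and none in replicate 3, against 3.69% of all genes. The median number of distal sites ran from 7 to 14 when 1 replicate was left out. Without replicate 3 it was 14, against 3 over all genes. It was 4 with the strongest 50% of peaks, 5 within 50 kb and 10.5 within 200 kb, against 1, 2 and 2 over all genes. The leading gene was Ephb2 except without replicate 3 and within 50 kb, where Sema6a had 48 and 21 sites, and within 200 kb, where Sema6d had 40. In 300 bp windows the homeobox word was in 15% of guidance sites and 10.6% of all. OTX was in 8.72% and 8.34% there, so its shares were closer, and CTCF was in 2.78% and 4.87%. Regions of replicate 3 alone fell from 71 to 19 once those with a neighbouring peak within 500 bp were left out. The causes of the other changes were not tested. Depth is unknown, so a region without a peak was not detectable in that list and need not be closed. No paired analysis was possible because there is 1 group.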

Other observations

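Counted over the whole gene body, with no limit of distance and with promoter sites and sites nearer to another gene's start included, Sema5a held 47 sites found in all 3 replicates, Slit3 42, Ephb2 and Robo1 33 each, Sema6d 31, Sema3a 30 and Efna5 29. Epha6, the longest of the 58 genes, held 16. The rule of the nearest start gave Slit3 11 distal sites, Sema3a 11 and Epha6 6. Per 100 kb of gene body the values were 10.4 for Sema5a, 7.15 for Slit3, 17.5 for Ephb2 and 4.47 for Robo1.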
